A study of Danio rerio with 24 samples.

Results

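The genes blf, znfl2a, inka1a, arl13a, zgc:112332, fkbp7, polr3gla, anxa2b, sncga and si:ch1073-80i24.3 are 10 of the 32521 rows of the abundance table made from zebrafish (Danio rerio) embryos in which mRNAs were targeted with the RNA-cutting nuclease RfxCas13d (Cas13d). They were chosen by their log2 fold change in embryos given nanog guide RNAs over embryos given Cas13d mRNA alone, where they were among the lowest genes, so their values in that comparison are a description and carry no test here. The labels give 6 hours post injection as the collection time of all embryos, and every group had 2 libraries. The values are transcript abundances in TPM, which divide the reads of a gene by its length and scale each library to the same total. The sequencing depth of the libraries is unknown.

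The first set came from transgenic embryos with maternally provided RFP, injected as single cells. Its groups were Cas13d mRNA (200 to 250 pg per embryo) with guides against nanog (500 to 600 pg), the same with guides against rfp, the same with guides against dnd and a reporter, Cas13d mRNA with the reporter, Cas13d mRNA alone, and embryos that were not injected. The reporter was gfp mRNA (40 pg) carrying the 3′UTR of nanos. The second set received Cas13d mRNA with szrd1 guides, purified Cas13d protein (3 ng) with szrd1 guides, Cas13d protein with the reporter and dnd1 guides, Cas13d protein with the reporter, Cas13d protein alone, and Cas13d mRNA alone. The protein dose is unclear in the label of replicate 2 with dnd1 guides. Each set was fitted apart, because set and group cannot be told apart, and no uninjected embryos belong to the second set here.

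In the zebrafish, the embryo at first runs on mRNAs and proteins laid down in the egg, and its own genome is then switched on while the maternal mRNAs are cleared. Nanog is a maternally supplied homeodomain transcription factor which, together with Pou5f3 and the SoxB1 factor Sox19b, opens chromatin at many of the first genes to be transcribed. Guides against nanog mRNA lower the message from which more of this factor can be made, without a change to the genome. All libraries are from a single time point, so whether the 10 genes are transcribed early was not tested here.

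By role, blf and znfl2a encode zinc finger proteins. Polr3gla encodes a subunit of RNA polymerase III, the enzyme that transcribes transfer RNAs and other short RNAs. Inka1a belongs to the inka box family, of which the mammalian member INKA1 binds and inhibits the kinase PAK4. Arl13a encodes a small GTPase of the ARF-like family, whose relative Arl13b acts in cilia. Fkbp7 encodes a peptidyl-prolyl isomerase of the endoplasmic reticulum, anxa2b an annexin that binds membranes in the presence of calcium, and sncga a synuclein.

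The state of the libraries was examined first. From 13927 to 15757 genes reached 1 TPM in a library. In replicate 1 with nanog guides 5 repeat-like loci took 23.2% of the total, against 1.62% in replicate 2. The median absolute difference of log2(TPM + 1) between these replicates was 0.198 over the 10 genes. It was 0.502 over all genes whose mean log2(TPM + 1) in the group was above 1. In the other groups the median over genes filtered in the same way lay between 0.105 and 0.214. Libraries with the label of Cas13d protein plus reporter went against it for nanos3, whose level was high with the reporter in the first set: they held 21.3 and 20.7 TPM, against 16.6 and 17.3 TPM with Cas13d protein alone, while the first set had 1432 and 1646 TPM with Cas13d mRNA and reporter, against 75.5 and 68.8 TPM without the reporter. Both comparisons that use those libraries rest on them entirely, so no value without them exists. RNA came from whole embryos, in which fewer cells of a type and less RNA per cell cannot be told apart.

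Nanog (ENSDARG00000075113) itself had 33.6 and 44.5 TPM with nanog guides, against 324 and 253 TPM with Cas13d mRNA alone. Its level was far from constant in libraries without nanog guides. It was 598 and 715 TPM with rfp guides, 1003 and 988 TPM with dnd guides and reporter, 592 and 623 TPM with the reporter and 194 and 172 TPM in uninjected embryos. In the second set nanog had 434 and 395 TPM with Cas13d mRNA and szrd1 guides, 154 and 153 TPM with Cas13d mRNA alone, 207 and 183 TPM with Cas13d protein, reporter and dnd1 guides, 52.8 and 58.1 TPM with Cas13d protein labelled as with the reporter, 49.9 and 62.8 TPM with Cas13d protein and szrd1 guides, and 8.93 and 7.25 TPM with Cas13d protein alone. The lowest nanog level of the series was thus in Cas13d protein libraries that received no guide.

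With nanog guides, all 10 genes lay between 3.29 and 14.7% of their mean with Cas13d mRNA alone, with a median of 6.75%. Their median log2 fold change was -3.52, and that of all 15253 genes tested was -0.05. Over all genes tested, 2.12% were called lower (324) and 1.95% were called higher (297), where called means a limma p-value under 0.05 after Benjamini-Hochberg adjustment over all genes and a log2 fold change of 1 or more in either direction. Since this comparison chose the members, nothing is read from their share. Fold changes were taken on log2(TPM + 1), which understates the change of low genes.

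Both zinc finger genes were abundant in controls. Blf (ENSDARG00000043126) had 14.9 and 21.5 TPM with nanog guides, against 289.8 and 323 TPM with Cas13d mRNA (log2 fold change -4.02, SE 0.16). Znfl2a (ENSDARG00000008333) had 43.3 and 42.4 TPM with nanog guides, against 295 and 303 TPM with Cas13d mRNA (log2 fold change -2.77, SE 0.13). Blf was left at 5.94% and znfl2a at 14.3% of the control mean, and in both genes the replicates of one group were well apart from those of the other.

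The polymerase subunit gene and si:ch1073-80i24.3 had the highest control levels of the 10. Polr3gla (ENSDARG00000012044) had 135 and 196 TPM with nanog guides, against 1130.2 and 1113 TPM with Cas13d mRNA (log2 fold change -2.78, SE 0.16). Si:ch1073-80i24.3 (ENSDARG00000097776) had 89.3 and 102 TPM with nanog guides, against 1164 and 1103 TPM with Cas13d mRNA (log2 fold change -3.56, SE 0.17). At these values both genes were still above the control levels of arl13a, zgc:112332, sncga and anxa2b.

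Inka1a (ENSDARG00000070360) had 14.6 and 17.1 TPM with nanog guides, against 234 and 199 TPM with Cas13d mRNA (log2 fold change -3.69, SE 0.16). Arl13a (ENSDARG00000052575) had 1.86 and 1.90 TPM with nanog guides, against 36.6 and 40.1 TPM with Cas13d mRNA (log2 fold change -3.77, SE 0.17). Fkbp7 (ENSDARG00000010962) had 13.5 and 14.9 TPM with nanog guides, against 109.9 and 108 TPM with Cas13d mRNA (log2 fold change -2.85, SE 0.16). In these genes, too, every library with nanog guides was far below both controls.

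Sncga, anxa2b and zgc:112332 were, with arl13a, the 4 members with the lowest control levels. The gene zgc:112332 (ENSDARG00000058966), the member with the largest fold change, had 1.96 and 1.47 TPM with nanog guides, against 53.3 and 51.0 TPM with Cas13d mRNA (log2 fold change -4.30, SE 0.18). Sncga (ENSDARG00000034423) had 1.34 and 2.50 TPM with nanog guides, against 32.8 and 29.2 TPM with Cas13d mRNA (log2 fold change -3.48, SE 0.20). Anxa2b (ENSDARG00000053625) had 0.88 and 0.67 TPM with nanog guides, against 17.1 and 16.2 TPM with Cas13d mRNA (log2 fold change -3.32, SE 0.19). Anxa2b, the only member under 1 TPM in any library, fell under that level in both libraries with nanog guides.

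Without replicate 1 with nanog guides, the library rich in repeat-like loci, the median log2 fold change of the 10 genes was -3.43, and without replicate 2 it was -3.71.

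**Figure D1:**
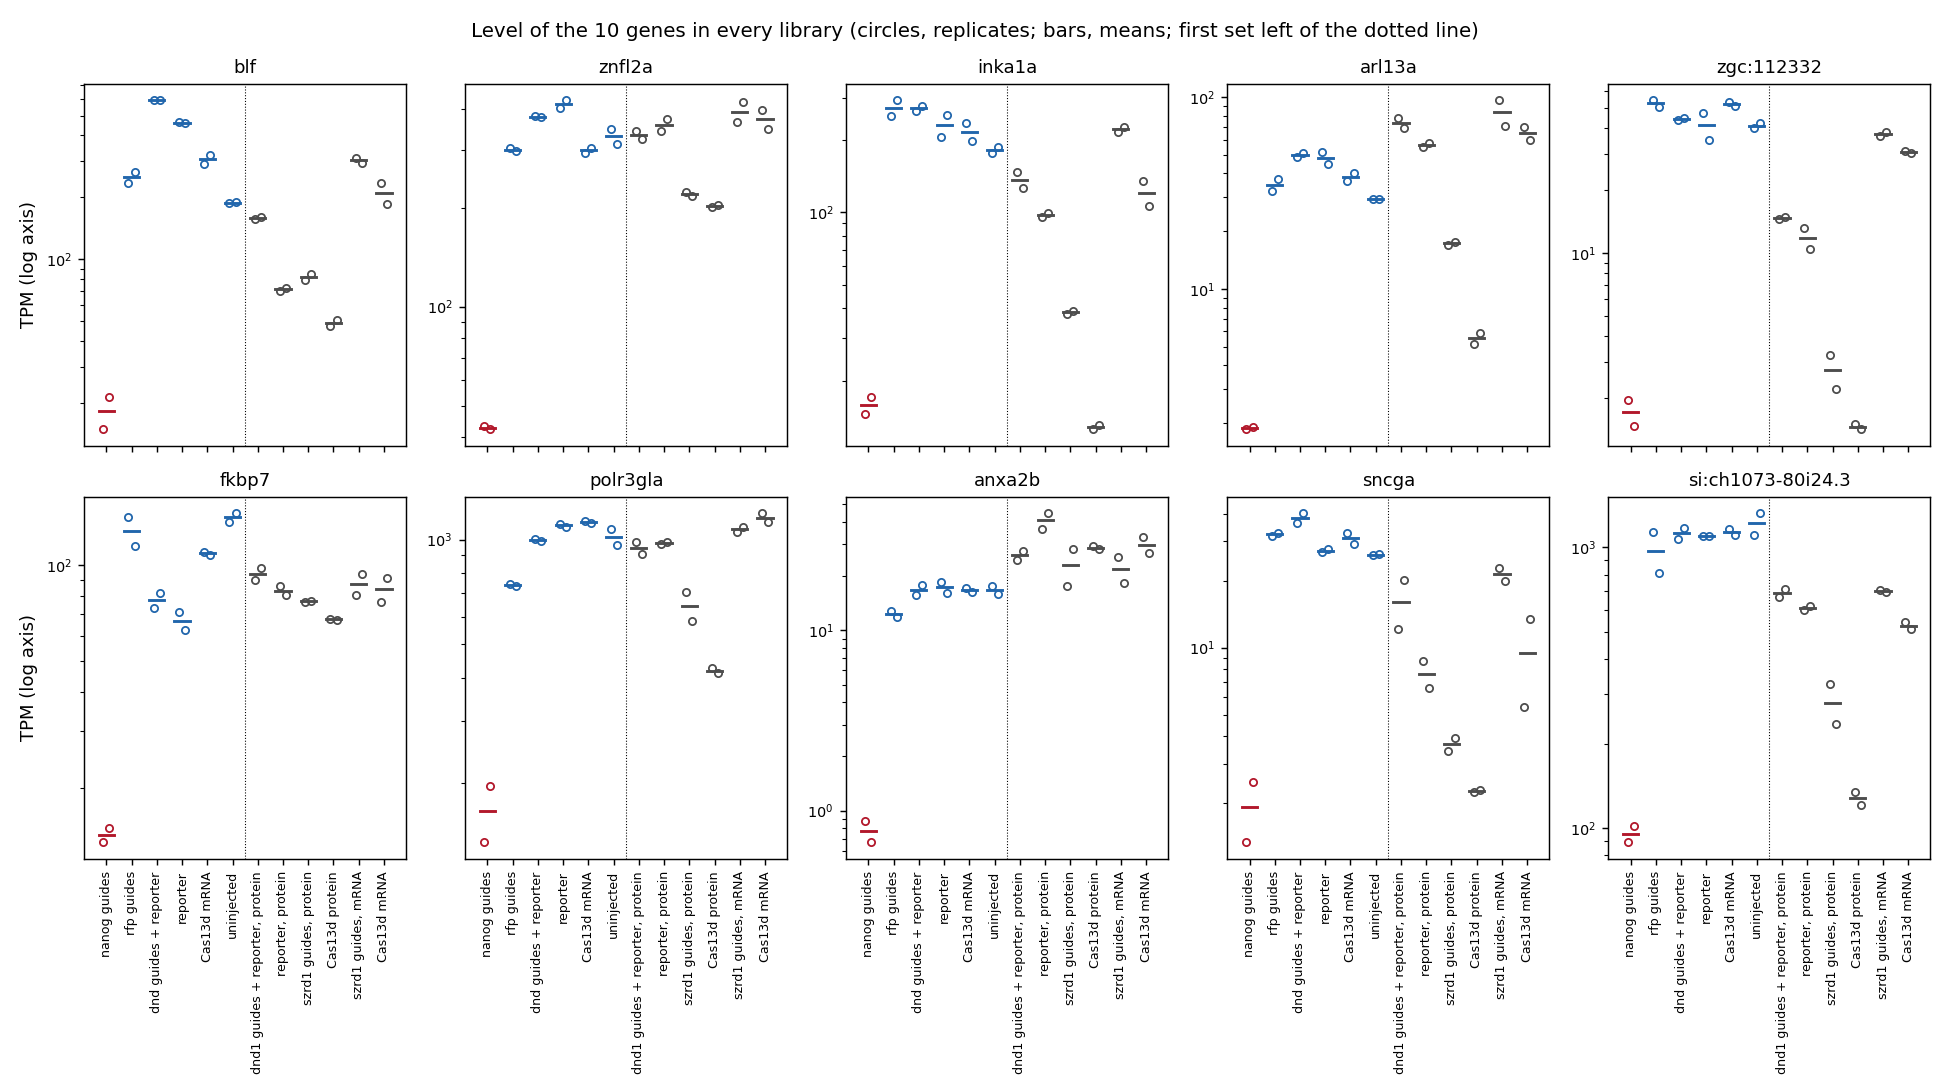
Level of each of the 10 genes in all 24 libraries, in TPM on a log axis that is scaled for each gene; circles are the 2 replicates of a group and bars their mean, with nanog guides in red, the rest of the first set in blue and the second set in grey. In the first set the libraries with nanog guides are the lowest for each gene, and in the second set Cas13d protein alone is the lowest group for all but anxa2b.

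The 10 genes held places 2, 3, 4, 5, 8, 9, 10, 21, 24 and 25 from the lowest among the genes tested. The place before all of them belonged to RF00277, a small RNA locus with 31.8 and 0 TPM with nanog guides against 233 and 121 TPM with Cas13d mRNA, which was not called. Just inside the range of the members were znfl2a (-2.77), polr3gla (-2.78) and fkbp7 (-2.85). Just outside it were apoa1b (-2.74), szl (-2.71) and si:dkey-159n16.4 (-2.71). Genes of like size that are no members stood among them, such as stmn2a at place 6 (-3.64) and alpl at place 11 (-3.29), and nanog itself at place 20 (-2.86).

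Against uninjected embryos the 10 genes lay between 4.19 and 16.2% with nanog guides (median log2 fold change -3.32), and against rfp guides between 3.27 and 22.3% (median -3.43). These comparisons share the nanog libraries with the one that chose the members and are therefore descriptions as well. Polr3gla had the highest remainder in both. Replicate 1 with nanog guides had a lower share of the Cas13d mRNA mean than replicate 2 in 7 of the 10 genes, among them blf (4.87 and 7.01%), polr3gla (12.02 and 17.5%) and sncga (4.32 and 8.06%). It had a higher share in the other 3, znfl2a (14.5 and 14.2%), zgc:112332 (3.76 and 2.82%) and anxa2b (5.28 and 4.02%). Over all genes tested, the median log2 fold change over Cas13d mRNA was -0.28 without replicate 2 and -0.05 with both. Lower values in replicate 1 were thus not particular to the 10 genes.

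Genes with family symbols like those of the members were set beside them as relatives. For polr3gla these were 10 rows of RNA polymerase III subunits, which share an enzyme and need not be related in sequence. Of all 53 rows taken by symbol, 46 were tested. With nanog guides over Cas13d mRNA 0 were called lower and 2 higher, both zinc finger-like genes related by name to znfl2a. Shares over all genes tested were 2.12% lower and 1.95% higher. Of the 46, 22 had a log2 fold change above 0 and 24 below 0. Inka1b had 44.0 TPM with nanog guides against 73.5 TPM with Cas13d mRNA, 59.9% of control, while inka1a was at 7.30%. Arl13b was at 58.9% and arl13a at 4.91%. Polr3glb was at 89.9% of control, with 20.1 TPM against 22.4 TPM, and polr3gla at 14.7%. The members were chosen by these low values, so their distance from the relatives is a description and not a test. Among the zinc finger-like genes, znfl1c had 38.9 TPM with nanog guides against 17.3 TPM (log2 fold change 1.15, SE 0.23, limma adjusted p 0.0092). Znfl1l had 30.3 TPM with nanog guides against 14.4 TPM (1.01, SE 0.21, adjusted p 0.013). Uninjected embryos had 38.6 TPM of znfl1c and 23.8 TPM of znfl1l. With nanog guides znfl1c was thus near its uninjected level, and its call was one over Cas13d mRNA alone. Reads of near-identical copies may have been divided between genes of this family, so its values are uncertain.

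**Figure D2:**
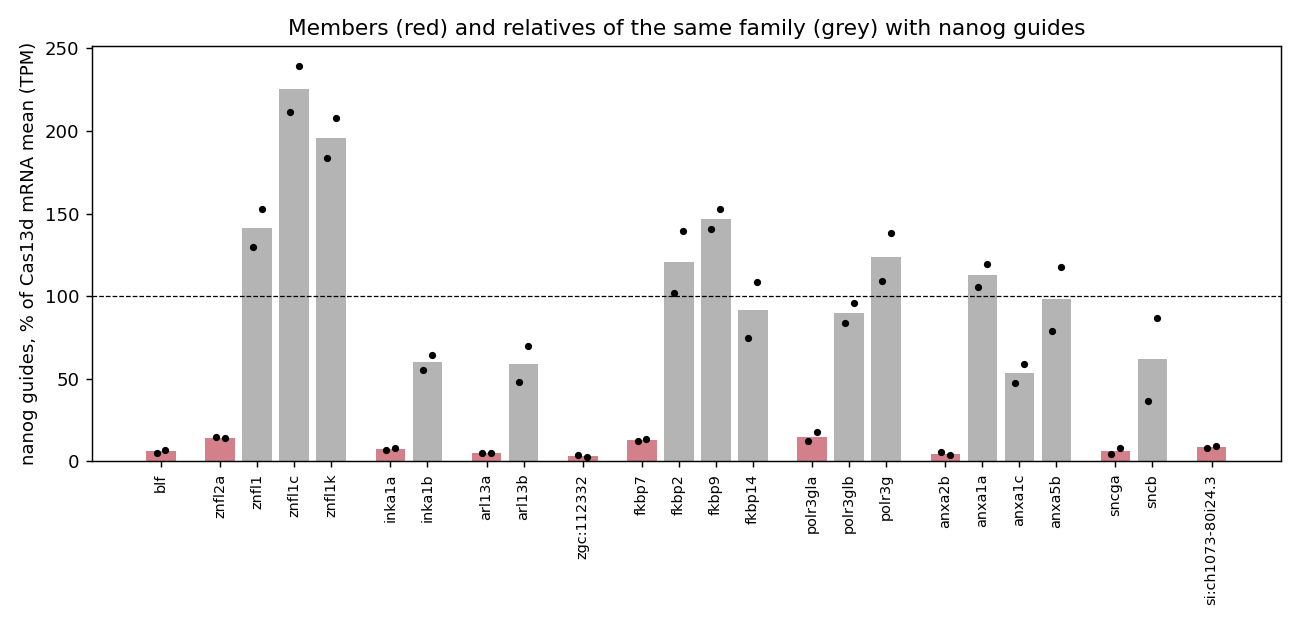
Level with nanog guides as a percentage of the mean with Cas13d mRNA alone, for the 10 genes (red) and selected family relatives (grey); bars are means of 2 replicates and dots the replicates. The members lie between 3.29 and 14.7%, and the lowest relative shown, anxa1c, is at 53.3%. The members were chosen by their low level in this comparison, and the relatives were not.

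Genes of genome activation that are no members were measured in the same libraries. Of the 5 activator genes listed, nanog and pou5f3 were called lower and eomesa was called higher. Pou5f3, the POU factor that acts with Nanog, had 504 and 742 TPM with nanog guides, against 1570.4 and 1716 TPM (log2 fold change -1.42, SE 0.18, limma adjusted p 0.00031). Eomesa, a T-box factor, had 24.34 and 36.4 TPM with nanog guides, against 10.9 and 10.3 TPM (1.41, SE 0.20, adjusted p 0.0011). It also had 24.03 and 23.55 TPM with rfp guides and 34.4 and 35.7 TPM with dnd guides and reporter. Sox19b had 49.7 and 82.2 TPM with nanog guides, against 39.4 and 36.3 TPM (0.74, SE 0.21, adjusted p 0.048), under the fold minimum. Its level was 59.1 and 63.9 TPM with dnd guides and reporter, 51.2 and 57.7 TPM with the reporter, and 32.0 and 37.0 TPM with rfp guides. Levels of eomesa and sox19b above Cas13d mRNA alone were thus not particular to nanog guides.

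Of a list of 30 genes named as early zygotic, none of them a member, 8 were called lower with nanog guides and 1 higher, and their median log2 fold change was -0.52. Over all genes tested, 2.12% were called lower and 1.95% higher, with a median of -0.05. This list, too, was chosen with earlier results of these data known. Her5, a Hairy-related repressor, had 4.21 and 5.27 TPM with nanog guides, against 34.6 and 26.2 TPM (log2 fold change -2.45). Vent, a homeobox repressor of dorsal fates, had 16.2 and 19.9 TPM, against 76.9 and 71.1 TPM (-1.98), and tbx16, a mesodermal T-box factor, 74.3 and 93.2 TPM, against 298 and 293 TPM (-1.82). The gene called higher was isg15, an interferon-response gene, with 45.5 and 63.7 TPM, against 37.2 and 17.7 TPM (1.04). It had 46.9 and 56.9 TPM with the reporter and 66.65 and 81.3 TPM with dnd guides and reporter, but 29.3 and 30.6 TPM with rfp guides. Such levels of isg15 were thus not particular to nanog guides. Her5, vent, tbx16 and isg15 were named because they were called, so their distance from Cas13d mRNA alone is no further result.

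Markers of embryonic layers were examined in the same libraries. Of 10 enveloping layer markers 0 were called, with a summed level of 6912 and 8830 TPM with nanog guides against 9927 and 10030 TPM with Cas13d mRNA. Of 7 tested yolk syncytial and endoderm markers 1 was called lower, and their sum was 251 and 395 TPM with nanog guides against 517 and 459 TPM. Of 6 tested ectoderm markers 2 were called lower, sox3 and gata2a, and the sum of the list was 292 and 427 TPM with nanog guides against 735 and 756 TPM. Of 7 mesoderm markers 2 were called lower, tbx16 and eve1, with sums of 856 and 1193 TPM with nanog guides against 1405 and 1372 TPM. The summed levels of all 4 marker lists were thus lower in both libraries with nanog guides than in either control. With rfp guides the sums were 8184 and 7844 TPM for enveloping layer, 1257 and 1004 TPM for mesoderm and 464 and 419 TPM for ectoderm markers. These, too, lay below both controls, so lower sums of those lists were not particular to nanog guides. Yolk syncytial and endoderm markers summed to 649 and 509 TPM with rfp guides, not below both controls. Oocyte maternal genes were called higher in 6 of 16 cases, among them buc and gdf9, with sums of 1231 and 1596 TPM with nanog guides against 1000.0 and 863 TPM. The sums of these genes were 1529 and 1732 TPM with rfp guides and 1190 and 1345 TPM with dnd guides and reporter. Higher sums than with Cas13d mRNA alone were thus not particular to nanog guides. Of 11 p53 response genes tested, 7 were called higher with nanog guides. Shares over all genes tested were 2.12% lower and 1.95% higher. The lists were chosen with earlier results of these data known, so their counts are descriptions. The sums of that list overlapped, with 1676 and 2188 TPM with nanog guides against 1913 and 1665 TPM. None of these lists had a gene at 0 in both libraries with nanog guides. Their part in the low levels of the 10 genes was not tested.

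Among groups of the first set that the choice of genes did not use, rfp guides were set against uninjected embryos. These groups differed in injection, Cas13d mRNA and guides, which cannot be told apart in this comparison. Of the 10 genes 0 were called by limma, and 2.83% of all genes were (431, with 3352 at an unadjusted p under 0.05). The lowest adjusted p of a member was 0.058, for inka1a, which had 251 and 293 TPM with rfp guides, against 177 and 187 TPM in uninjected embryos. Polr3gla had 743 and 736 TPM with rfp guides, against 1075 and 962 TPM (log2 fold change -0.46, adjusted p 0.12). Over the 10 genes the log2 fold changes with rfp guides lay between -0.46 and 0.57.

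The reporter with Cas13d mRNA against uninjected embryos gave 2 calls of opposite direction. The groups differed in injection, Cas13d mRNA and reporter, which cannot be told apart in this comparison. With Cas13d mRNA alone blf had 290 and 323 TPM, and fkbp7 had 110 and 108 TPM. Blf was higher, with 464 and 458 TPM with the reporter, against 188 and 189 TPM (log2 fold change 1.29, SE 0.16, limma adjusted p 0.00081). Of all genes, 8.96% were called higher. Fkbp7 was lower, with 71.1 and 62.7 TPM with the reporter, against 137 and 146 TPM (-1.07, SE 0.16, adjusted p 0.0014). Of all genes, 1.04% were called lower. Without replicate 2 of the reporter group, fkbp7 measured -0.98 and missed the fold minimum. Arl13a had a log2 fold change of 0.69 (adjusted p 0.011), under the fold minimum, and the other 7 genes did not pass the test. The median of all genes in this comparison was 0.22.

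Addition of dnd guides to the reporter changed 0 of the 10 genes by limma's test and 0.0262% of all genes (4, with 474 at an unadjusted p under 0.05). Blf reached its highest level of the series there, with 594 and 593 TPM with dnd guides and reporter, against 464 and 458 TPM with the reporter (log2 fold change 0.37, SE 0.16, adjusted p 1). Over the first set without nanog guides, the order of the group means differed from gene to gene. Blf ran from uninjected embryos, the lowest, over rfp guides, Cas13d mRNA and the reporter to dnd guides and reporter, and no neighbours in that order overlapped. Fkbp7 had the reporter lowest and uninjected embryos highest, and uninjected embryos overlapped with rfp guides, 137 and 146 against 142 and 115 TPM.

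In the second set, the median difference of the 10 genes was widest between Cas13d protein alone and Cas13d mRNA alone, neither with guides. Gene by gene, si:ch1073-80i24.3 differed more between the reporter label and protein alone (2.24, against -2.04 here), and anxa2b more with dnd1 guides (-0.62, against -0.04 here). Genes of later stages differed between these libraries as well, so embryo stage and the form of Cas13d cannot be told apart in this comparison. Of the 10 genes 7 were called lower with protein, 0 were called higher, and 10.8% of all genes tested were called lower and 11.1% higher. The 7 were zgc:112332, arl13a, inka1a, blf, si:ch1073-80i24.3, sncga and polr3gla. The median log2 fold change was -1.80 over the 10 genes and 0.06 over all 14716 genes tested. None of these libraries entered the fold change by which the genes were chosen. The members were, however, picked with earlier results of these data known.

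The gene zgc:112332 had 1.5 and 1.42 TPM with Cas13d protein, against 30.9 and 30.2 TPM with Cas13d mRNA (log2 fold change -3.68, SE 0.15, limma adjusted p 1.8e-07). Arl13a had 5.19 and 5.92 TPM with Cas13d protein, against 69.9 and 59.8 TPM with Cas13d mRNA (-3.33, SE 0.14, adjusted p 2.3e-07). Inka1a had 12.6 and 13.1 TPM with Cas13d protein, against 135 and 107 TPM with Cas13d mRNA (-3.13, SE 0.11, adjusted p 9.7e-08). For inka1a both Cas13d protein libraries were the lowest of all 24, and for zgc:112332 they overlapped those with nanog guides, though the levels of the 2 sets were not tested against each other.

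Blf had 47.1 and 50.8 TPM with Cas13d protein, against 234 and 185 TPM with Cas13d mRNA (log2 fold change -2.07, SE 0.10, limma adjusted p 4e-07). Si:ch1073-80i24.3 had 134 and 121 TPM with Cas13d protein, against 541 and 512 TPM with Cas13d mRNA (-2.04, SE 0.13). Polr3gla had 426 and 414 TPM with Cas13d protein, against 1192 and 1120.2 TPM with Cas13d mRNA (-1.46, SE 0.09). Sncga had the least certain of the 7 calls, with 2.26 and 2.29 TPM with Cas13d protein, against 5.41 and 13.5 TPM with Cas13d mRNA (-1.56, SE 0.34, adjusted p 0.0035). Its mRNA replicates differed by 1.18 on the log2 scale, and without replicate 2 of Cas13d mRNA the value was -0.97, under the fold minimum.

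The other 3 genes were not called between the forms of Cas13d. Znfl2a had 201 and 204 TPM with Cas13d protein, against 396 and 348 TPM with Cas13d mRNA (log2 fold change -0.87, SE 0.09, limma adjusted p 2.6e-05). Fkbp7 had 67.8 and 67.2 TPM with protein, against 76.7 and 91.0 TPM (-0.30, SE 0.10, adjusted p 0.026). Both were under the fold minimum. Anxa2b had 29.2 and 28.3 TPM with Cas13d protein, against 32.9 and 26.8 TPM with Cas13d mRNA, and the groups overlapped (-0.04, SE 0.22, adjusted p 0.88). With nanog guides the same 3 genes were at 14.3, 13.1 and 4.65% of control. Anxa2b thus had one of the smallest remainders there, while its difference between the forms of Cas13d here was within its error.

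Other transcripts, genes of later stages among them, differed between the same libraries. Nanog was lower with protein (log2 fold change -4.09, SE 0.13, limma adjusted p 6.1e-08), as were pou5f3 (-1.65), eomesa (-2.43) and foxh1 (-1.06), while sox19b had a log2 fold change of 0.90. Each of the 14 tested oocyte maternal genes was called lower, with sums of 119 and 97.8 TPM with Cas13d protein against 462 and 447 TPM with Cas13d mRNA. Of 10 tested genes that mark later stages, 8 were called higher, with sums of 722 and 746 TPM with Cas13d protein against 293 and 290.5 TPM. Hoxb1b, a hindbrain patterning gene, had 78.3 and 94.1 TPM with protein, against 0.11 and 0.10 TPM, and tbx6, a gene of paraxial mesoderm, 37.2 and 48.3 TPM, against 0.34 and 1.02 TPM. Of the 30 genes listed as early zygotic 7 were called lower and 4 higher, where 10.8 and 11.1% of all genes were. Of 48 relatives by gene symbol that were tested, 5 were called lower and 16 higher, and all 8 znfl1 genes were among these 16. The part of any of these in the lower levels of the 7 genes was not tested.

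With Cas13d protein, szrd1 guides were set against protein alone, and 3 of the 10 genes were called higher, where 2.55% of all genes were. Inka1a had 38.0 and 39.0 TPM with szrd1 guides, against 12.6 and 13.1 TPM (log2 fold change 1.51, SE 0.11, limma adjusted p 5.4e-05). Arl13a had 16.9 and 17.6 TPM with szrd1 guides, against 5.19 and 5.92 TPM (1.48, SE 0.14, adjusted p 0.00027). Si:ch1073-80i24.3 had 326 and 235 TPM with szrd1 guides, against 134 and 121 TPM (1.11, SE 0.13, adjusted p 0.00062). It measured 0.88 without replicate 1 with szrd1 guides. Blf (0.73), polr3gla (0.61) and zgc:112332 (0.58) passed the adjusted p but not the fold minimum. In these libraries nanog was also higher with szrd1 guides (2.65, adjusted p 4.5e-06), 10 of 14 oocyte maternal genes were called higher and 3 of 10 later stage genes, hoxb1b among them, lower, and their part in the 3 calls was not tested.

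**Figure D3:**
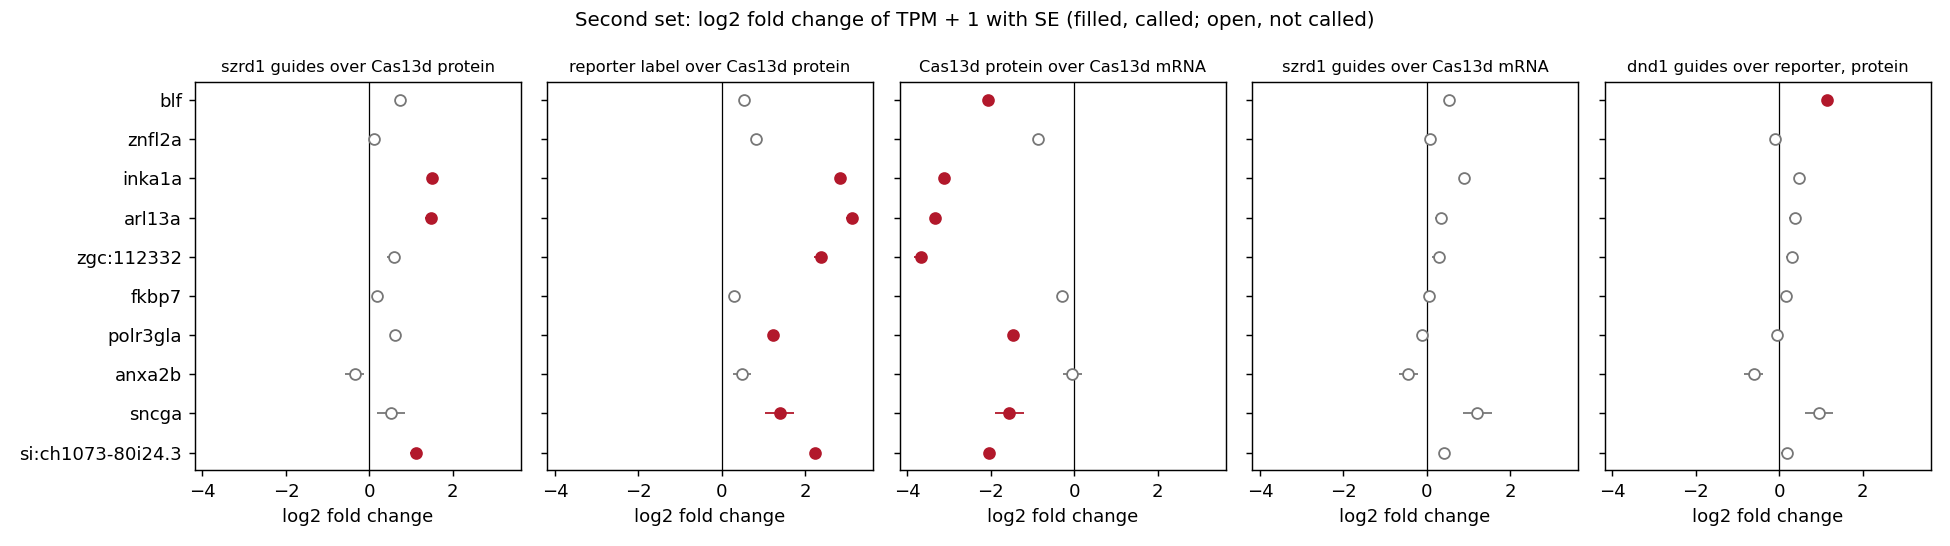
Log2 fold change of TPM + 1 of the 10 genes in 5 comparisons of the second set, with the standard error of the limma fit as bars; filled points passed the adjusted p and the fold minimum. The called genes lie below 0 for Cas13d protein over Cas13d mRNA and above 0 for both comparisons over Cas13d protein, which share its 2 libraries with it.

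The protein libraries labelled as carrying the reporter had 6 of the 10 genes called higher than Cas13d protein alone, where 8.28% of all genes were. The largest difference was that of arl13a, with 54.8 and 57.6 TPM in libraries labelled with the reporter, against 5.19 and 5.92 TPM (log2 fold change 3.13, SE 0.14, limma adjusted p 5e-07). Inka1a had 95.8 and 99.5 TPM, against 12.6 and 13.1 TPM (2.83), and zgc:112332 13.2 and 10.4 TPM, against 1.5 and 1.42 TPM (2.37). Si:ch1073-80i24.3 (2.24), sncga (1.39) and polr3gla (1.22) were also called, sncga not without replicate 1 labelled with the reporter. This comparison, that of szrd1 guides with protein and that of protein over mRNA use the same 2 Cas13d protein libraries, so their values are not independent of each other. Nanog had a log2 fold change of 2.64 and hoxb1b one of -6.16 in this comparison, and their part in it was not tested.

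With dnd1 guides against these protein libraries labelled as carrying the reporter, blf was the 1 member called, and 0.387% of all genes were called higher. It had 157 and 161 TPM with dnd1 guides, against 70.4 and 72.6 TPM (log2 fold change 1.14, SE 0.10, limma adjusted p 0.0012). Nanos3 had 121 and 159.6 TPM with dnd1 guides, against 21.3 and 20.7 TPM (2.67, adjusted p 3.2e-05), so the groups differed in the signal of the reporter as well as in the guides, and both cannot be told apart in the value of blf. Nanog was higher too in that comparison (1.79, adjusted p 0.00034). The other 9 genes did not pass the test, with log2 fold changes between -0.62 for anxa2b and 0.95 for sncga.

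With Cas13d mRNA, szrd1 guides gave 0 calls among the 10 genes by limma, and 0.924% of all genes were called. Inka1a had 216 and 227 TPM with szrd1 guides, against 135 and 107 TPM (log2 fold change 0.88, SE 0.11, adjusted p 0.0036). For blf the values were 311 and 294 TPM with szrd1 guides, against 234 and 185 TPM (0.53, SE 0.10, adjusted p 0.019). Both were under the fold minimum. Sncga had 22.7 and 20.0 TPM with szrd1 guides, against 5.41 and 13.5 TPM (1.21, adjusted p 0.079). A count of 1 was reached without replicate 1 of Cas13d mRNA, through inka1a (1.05), and without its replicate 2, through sncga (1.80). Nanog was higher with szrd1 guides here as well (1.43, adjusted p 0.0013).

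The szrd1 effects with protein and with mRNA were compared by a test of the difference of both log2 fold changes. It was called for 1 member, arl13a, whose effect was larger with protein by 1.13 (SE 0.20, limma adjusted p 0.027). Of all genes, 0.775% were called higher. Polr3gla differed by 0.72 (SE 0.12, adjusted p 0.023), under the fold minimum. The call of arl13a was lost without replicate 1 or 2 with szrd1 guides and protein, replicate 1 or 2 of protein alone, replicate 1 of Cas13d mRNA, or replicate 2 with szrd1 guides and mRNA, with values from 0.91 to 1.21.

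The spread of a gene over the whole series differed widely among the 10. Polr3gla had the narrowest range, from 134.8 to 1192 TPM or 8.85-fold, and anxa2b the widest, from 0.67 to 44.7 TPM or 66.7-fold. In both genes the lowest library had nanog guides, which took part in the choice, and the highest belonged to the second set. These ranges are therefore descriptions that also cross the sets. Across the 10 groups that the choice of genes did not use, the mean profile of the members was followed most closely by inka1a (Pearson r 0.97) and zgc:112332 (0.95), less closely by fkbp7 (0.41) and inversely by anxa2b (-0.36). Each r is over group means of log2(TPM + 1), and the 2 groups with the lowest levels, Cas13d protein alone and with szrd1 guides, weigh heavily in it. The 10 groups come from both sets without a term for set, so a difference between sets enters each r. Anxa2b, for example, had means of 12.4 to 17.4 TPM in the first-set groups used and 21.9 to 40.7 TPM in the second set. The part of this in its r was not tested. The mean profile includes the member compared with it, which raises the r of each member. The most alike pair was inka1a and si:ch1073-80i24.3 (r 0.96), and the least alike anxa2b and sncga (-0.71).

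Profiles were compared for 9199 genes, members included, with a mean of at least 5 TPM in both sets. Apart from members, the profiles most like the mean of the members over the same 10 groups were those of slc25a21 (r 0.993), ptp4a2b (0.992), slc25a11 (0.991), mplkip (0.991) and rmnd1 (0.989). With nanog guides these 5 genes were at 90.5, 94.9, 97.4, 67.3 and 86.9% of the Cas13d mRNA mean. For 4 of the 5 the libraries with nanog guides overlapped the controls. Mplkip was lower without overlap, at -0.57 on the log2 scale (SE 0.14, adjusted p 0.029 by limma), under the fold minimum.

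**Figure D4:**
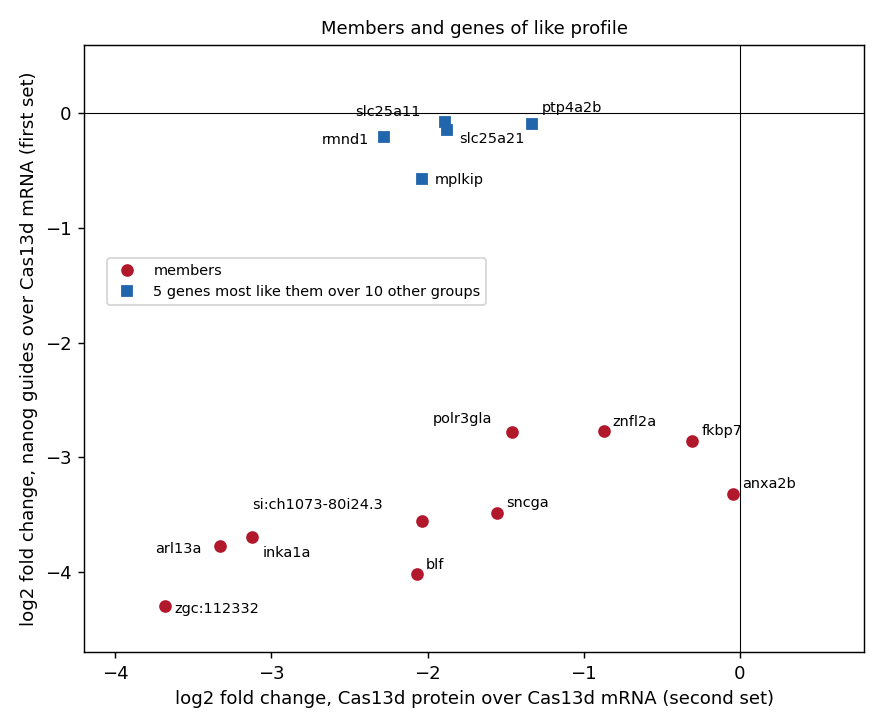
Log2 fold change with nanog guides over Cas13d mRNA (first set, vertical) against that of Cas13d protein over Cas13d mRNA (second set, horizontal) for the 10 genes and for the 5 genes of most similar profile over the other groups. The 5 genes lie between -0.57 (mplkip) and -0.07 on the vertical axis and between -2.28 and -1.33 on the horizontal axis, while the members lie at -2.77 or below on the vertical axis. The members were chosen by the vertical axis, so their low place on it was fixed by that choice and is no result.

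The genes next to the members were looked up by gene order in RefSeq, after the values had been seen. Of the 10 members 9 were found, with 18 neighbours, of which 13 matched a row and 8 were tested. None of the neighbours was a member. With nanog guides 1 of the 8 was called, si:dkey-73n8.3 beside zgc:112332, with 0.255 TPM with nanog guides against 2.3 TPM with Cas13d mRNA (log2 fold change -1.31, limma adjusted p 0.044). The levels of si:dkey-73n8.3 were low, and 2.12% of all genes tested were called lower, so nothing is read from this count. Sec61g, on the other side of zgc:112332, had 652 TPM with nanog guides against 848 TPM and was not called.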

How the data were processed

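RNA of whole zebrafish embryos was sequenced in 24 libraries (12 groups of 2). The authors deposited 1 table of TPM values, which per the submitters' processing notes came from bcl2fastq 2.18, STAR 2.6.1c, RSEM and the build danRer11; depth is unknown, and TPM is a share of a library, so a few abundant transcripts can lower all others. All 24 columns were assigned by title. Log2(TPM + 1) was fitted with limma 3.58.1 in R 4.3.3 (eBayes with trend, 6 groups of a set per fit) for genes with a mean of at least 1 TPM over a set, with two-sided p-values adjusted by Benjamini-Hochberg over all genes tested. The fit was tested on simulated data. The labels do not say that replicates came from separate clutches, so p-values measure the spread between these samples. The members and gene lists were chosen with earlier results of these data known. Named are every member, nanog as a targeted gene, genome activators, relatives of members and the 5 genes of most similar profile. Also named are the 3 genes on either side of the range of members, and up to 3 called genes per list and direction. Levels of the other targets, rfp, dnd1 and szrd1, are not given here. Stmn2a, alpl, hoxb1b in further comparisons, RF00277 and the neighbouring genes were chosen after their values were seen. Likeness used group means, leaving out nanog guides and Cas13d mRNA of the first set. Replicate numbers did not pair the samples. Promoter and protein sequences were not analysed here, and gene order was taken from RefSeq (GRCz12tu). Alternatives were a pseudocount of 0.1, no filter, median-of-ratios scaling, rescaling without genes over 10000 TPM, a fit of the groups compared, a replicate block, and leaving out each replicate.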

Additional observations from a re-analysis of the deposited data

Results flagged for a closer look

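The effect of szrd1 guides differed between Cas13d protein and Cas13d mRNA for 1 of the 10 genes, arl13a, past both the adjusted p and the fold minimum of the limma test of the difference itself. Of all genes, 0.775% were called higher in that test. A second gene, polr3gla, passed the adjusted p but not the fold minimum. For arl13a the log2 fold change was larger with protein by 1.13 (SE 0.20, adjusted p 0.027): it had 16.9 and 17.6 TPM with szrd1 guides against 5.19 and 5.92 TPM with protein alone, and 96.3 and 70.9 TPM with szrd1 guides against 69.9 and 59.8 TPM in mRNA libraries without guides. For polr3gla it was larger with protein by 0.72 (SE 0.12, adjusted p 0.023): it had 706 and 582 TPM with szrd1 guides against 426 and 414 TPM with protein alone, and 1055 and 1087 TPM with szrd1 guides against 1192 and 1120.2 TPM in mRNA libraries without guides. The call of arl13a was lost in 6 of the 8 fits that left out 1 replicate, without a filter on low values (adjusted p 0.057) and in the fit of the groups compared (adjusted p 0.12), and in the last of these polr3gla had an adjusted p of 0.10. The nanog level was 49.9 and 62.8 TPM with szrd1 guides against 8.93 and 7.25 TPM in the protein libraries, and 434 and 395 TPM with szrd1 guides against 154 and 153 TPM in the mRNA libraries. The part of that difference in the 2 results was not tested.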

How the results depend on the processing

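Over 90 combinations of member and tested comparison, 532 of 540 values under alternatives that kept all libraries held their direction and their side of the threshold. Leaving out the filter, fitting only the groups compared and a replicate block cannot change a log2 fold change in this design. Under these alternatives only the adjusted p could move, so the count overstates how far the direction was tried. TPM is relative, depth is unknown, and with 2 replicates a group each call leans on single libraries. With a pseudocount of 0.1 the median log2 fold change of the members with nanog guides was -3.89 over Cas13d mRNA, -3.59 over uninjected embryos and -3.82 over rfp guides; rescaled without genes over 10000 TPM the first was -3.38, and the median of rfp guides over Cas13d mRNA turned to 0.057 from -0.064. With median-of-ratios scaling the median of the reporter over Cas13d mRNA turned to -0.14 from 0.012, and that of Cas13d mRNA over uninjected embryos was 0.081 in place of 0.19. In the reporter over uninjected embryos this scaling turned polr3gla (-0.15), anxa2b (-0.20) and sncga (-0.20), and rescaling without genes over 10000 TPM turned anxa2b (-0.0022). With szrd1 guides and mRNA, median-of-ratios scaling turned znfl2a (-0.0064) and fkbp7 (-0.027). None of these values was called, and the cause was not tested.

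The genes called with rfp guides over uninjected embryos numbered 181 without a filter (431 as reported), those with dnd guides 2 at a pseudocount of 0.1 and 10 in a fit of the groups compared (4), those with szrd1 guides and mRNA 0 in that fit (136), and those with szrd1 guides and protein 647 at a pseudocount of 0.1 (431). For the difference of the szrd1 effects, 96 genes were called without a filter, 230.0 with median-of-ratios scaling and 31 in a fit of the groups compared (153), and arl13a was not called without a filter or in that fit, which left 0 members. With a replicate block the calls among the members kept their number in each of the 9 comparisons (7 for protein over mRNA), and the genes called with rfp guides numbered 408; same-numbered libraries deviated with correlations from -0.21 to 0.15, so the numbers were not read as a pairing.

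Leaving out 1 replicate at a time, the median log2 fold change of the members with nanog guides ran from -3.71 to -3.43 over Cas13d mRNA, from -3.47 to -3.25 over uninjected embryos and from -3.52 to -3.24 over rfp guides. Called members numbered 1 to 2 with the reporter over uninjected embryos, 0 to 1 with szrd1 guides and mRNA and 0 to 1 for the difference of the szrd1 effects, and 2 to 3, 6 to 7 and 5 to 6 with szrd1 guides and protein, for protein over mRNA and for the reporter label over protein. Called genes numbered 60.0 to 384 with rfp guides over uninjected embryos (lowest without uninjected replicate 1), 566 to 1599 with the reporter (lowest without uninjected replicate 2), 281 to 545 with szrd1 guides and protein (lowest without protein replicate 2), 13 to 25 with dnd1 guides and 47 to 191 for the difference of the szrd1 effects (lowest without protein replicate 2). Uncalled log2 fold changes that turned sign were fkbp7 (-0.297 to 0.0036) with rfp guides over uninjected embryos, zgc:112332 (-0.216 to 0.196) and anxa2b (-0.0447 to 0.14) with the reporter, and arl13a (-0.0457 to 0.162), zgc:112332 (-0.0881 to 0.324), anxa2b (-0.139 to 0.0447) and si:ch1073-80i24.3 (-0.0303 to 0.0951) with dnd guides. With szrd1 guides and mRNA these were znfl2a (-0.0252 to 0.177) and fkbp7 (-0.0676 to 0.177), with dnd1 guides polr3gla (-0.106 to 0.0126), for protein over mRNA anxa2b (-0.186 to 0.0971), and for the difference of the szrd1 effects znfl2a (-0.0542 to 0.148) and anxa2b (-0.239 to 0.42).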
